A study of Mus musculus with 2 samples.

Results

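Mitochondrial ribosomal proteins are the proteins of the ribosome that works inside mitochondria. Their genes were taken from the arrays as every probe set whose annotation gives exactly 1 gene symbol beginning with Mrpl or Mrps and a number, with several probe sets of 1 gene averaged. This rule found 71 genes, 43 named Mrpl and 28 named Mrps, among the 22180 genes measured. Liver RNA of mice fed a high-fat diet was profiled on 2 Affymetrix arrays, 1 for each genotype, WT and E4bp4-LKO, and the series title describes the second as E4bp4-deficient. All mice were male, went onto the diet at 2 months of age and ate it for 12 weeks. Their light hours were 12, so the diet, sex, age, light hours and tissue were common to both groups. Each array was hybridised with RNA pooled from several mice; the number of mice in a pool, the hour of collection and the way the E4bp4 gene was inactivated are not stated in the labels. A single array per genotype leaves no replicates, so the differences below carry neither an error nor a p-value and describe these 2 arrays alone. E4BP4 (gene symbol Nfil3) is a transcription repressor of the basic leucine zipper family; Nfil3 read 5.94 on the WT array and 4.47 on the E4bp4-LKO array, both as log2 intensities, a difference of -1.47.

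The mitochondrial ribosome makes the few proteins that mitochondrial DNA encodes, all of them core subunits of the respiratory chain and ATP synthase. Its RNAs come from mitochondrial DNA, whereas every one of its proteins is encoded in the nucleus, translated in the cytosol and imported. The small subunit reads the messenger RNA and the large subunit joins the amino acids. Part of the proteins descend from the bacterial ribosome, and the others were added during the evolution of mitochondria. In the liver the respiratory chain it supplies serves, among other things, the burning of fatty acids.

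Most mitochondrial ribosomal protein genes were slightly higher on the E4bp4-LKO array, and none above the floor was far from its WT value. The floor, the median over all genes of the mean of both arrays, was 4.20 on the log2 scale, and 66 of the 71 genes lay above it, all 66 on each array separately. Of these 66, 55 had a difference (E4bp4-LKO minus WT, log2) above 0 and 11 had a difference below 0, beside 45.5% of all 11090 genes above the floor with a difference above 0. Their median difference was 0.12, which is 1.09-fold, beside -0.02 over all genes above the floor. No member above the floor was 1.5-fold apart in either direction, beside 3.57% of all genes above the floor (1.51% higher and 2.06% lower). At the looser mark of 1.2-fold, 13 members (19.7%) were higher and 0 were lower, beside 10.6% and 12.7% of all genes above the floor.

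The members were also close to each other. Their differences ran from -0.13 to 0.56 with quartiles at 0.03 and 0.21, and the standard deviation between genes was 0.15, beside 0.27 for all genes above the floor. In the whole distribution, 34 of the 66 lay above the upper quartile of all genes (0.12), 32 lay between the quartiles and 0 lay below the lower quartile (-0.16). Only Mrpl20 passed the central 95% of all genes, which spans -0.54 to 0.49. As a measure of disagreement between probe sets, 555 genes above the floor had 2 probe sets, and the differences these gave had a within-gene standard deviation of 0.22. Both probe sets of a gene read the same pools on the same 2 arrays, so this value does not hold the variation between pools or arrays.

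**Figure D1:**
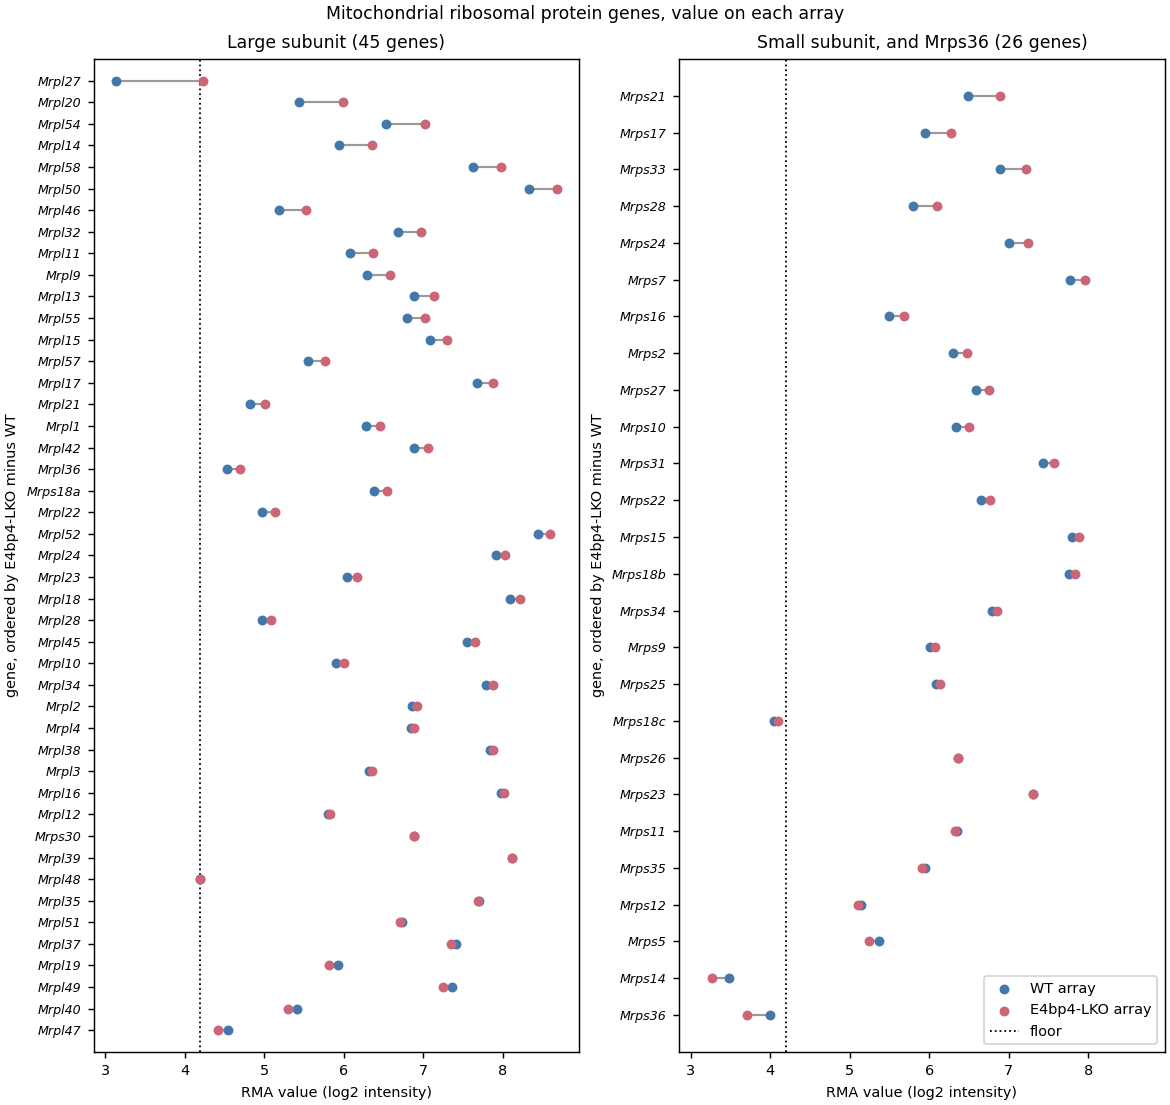
Value of each of the 71 mitochondrial ribosomal protein genes on the WT array (blue) and the E4bp4-LKO array (red), as RMA log2 intensity on the horizontal axis, with large subunit genes in the left panel and small subunit genes and Mrps36 in the right panel, ordered by their difference; the dotted line is the floor of 4.20. Red points lie to the right of blue ones for most genes, and the gap is widest for Mrpl27, whose WT value is below the floor.

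Promoter sequence was read for the members from RefSeq (GRCm38.p6), which held a window of 250 bases before to 50 bases after the start for 62 of the 71 genes. Shown are the bases before the start, back to the nearest annotated gene, of the members with the highest (Mrpl20, Mrpl50) and the lowest (Mrpl47, Mrpl40) differences above the floor that have at least 30 such bases on record. To these were added Mrpl17, which alone among the 32 members above the floor with such a stretch holds more than 1 of the NRF1, ETS and YY1 motifs within that stretch, and the 41 bases that lie between the starts of Mrpl46 and Mrps11, which point away from each other; both additions were chosen after the sequences and values had been seen. Capitals mark the letters of a motif searched on both strands.
Mrpl20 (chr4:155802628-155802877, plus strand): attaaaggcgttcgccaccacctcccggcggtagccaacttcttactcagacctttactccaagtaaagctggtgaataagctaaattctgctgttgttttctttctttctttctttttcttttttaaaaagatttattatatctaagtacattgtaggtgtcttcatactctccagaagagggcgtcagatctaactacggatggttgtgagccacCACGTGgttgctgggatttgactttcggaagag
Mrpl50 (chr4:49521084-49521175, minus strand): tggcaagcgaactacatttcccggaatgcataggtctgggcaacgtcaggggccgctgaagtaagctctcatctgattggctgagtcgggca
Mrpl47 (chr3:32736756-32737005, minus strand): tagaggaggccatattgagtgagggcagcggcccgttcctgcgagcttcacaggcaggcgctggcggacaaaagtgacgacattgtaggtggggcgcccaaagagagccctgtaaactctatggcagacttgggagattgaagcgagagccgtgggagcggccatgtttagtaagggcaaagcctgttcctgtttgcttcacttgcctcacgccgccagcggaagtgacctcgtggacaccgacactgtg
Mrpl40 (chr16:18876638-18876749, minus strand): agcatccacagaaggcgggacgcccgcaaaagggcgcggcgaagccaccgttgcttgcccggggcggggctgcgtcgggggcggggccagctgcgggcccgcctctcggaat
Mrpl17 (chr7:105811088-105811337, minus strand): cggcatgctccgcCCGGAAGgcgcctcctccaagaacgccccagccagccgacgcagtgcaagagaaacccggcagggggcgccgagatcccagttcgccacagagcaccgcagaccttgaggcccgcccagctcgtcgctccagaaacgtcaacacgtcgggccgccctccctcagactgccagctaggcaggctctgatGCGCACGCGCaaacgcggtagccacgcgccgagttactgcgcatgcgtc
Mrpl46 to Mrps11 (chr7:78783090-78783130, strand of Mrpl46): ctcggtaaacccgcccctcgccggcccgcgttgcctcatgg

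Motifs were counted over the whole windows of 300 bases, for the members and for the 27025 genes of any kind with a window. The members are all protein-coding, and shares over protein-coding genes alone were not computed. CCGGAAG, the core bound by ETS factors such as GABP, stood in 23 of the 62 member windows (37.1%) and in 9.93% of all. The motif of NRF1, a factor that drives many genes of mitochondrial proteins, stood in 11 members (17.7%) and in 5.19% of all, and the YY1 motif in 5 members (8.06%) and in 0.995% of all. The E-box CACGTG was as frequent among the members (5 of 62, 8.06%) as among all windows (8.09%), and 1 of those 5 is the E-box in capitals in the Mrpl20 stretch. TTACGTAA or TTATGTAA, the element that E4BP4 and the PAR bZIP activators bind, stood in 0 of the 62 member windows and in 1.23% of all; this says only that these letters are not in these windows.

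Members above the floor were then set side by side by motif. The 20 with the ETS core had a median difference of 0.16, with 18 of 20 above 0, beside 0.12 for those without it; the other 3 with this core lay below the floor. The 11 with the NRF1 motif had a median of 0.20 and all 11 were above 0, beside a median of 0.12 for those without it. The 5 with the YY1 motif (Mrpl35, Mrpl37, Mrps11, Mrps18a and Mrps27) had a median of -0.01, with 2 of 5 above 0, beside 0.13 for the members without it. The 30 members with any of these 3 motifs had a median of 0.12, like that of all 66. These groups share members, the genes are not replicates, and the differences between the groups were not tested.

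In the large subunit, 43 genes lay above the floor and their median difference was 0.12, with 36 above 0. Mrpl20, a protein of bacterial descent that binds the ribosomal RNA, had the widest difference above the floor, at 5.44 on the WT array and 5.99 on the E4bp4-LKO array (0.56, 1.47-fold), just inside the 1.5-fold mark. Mrpl54, a protein without a bacterial counterpart, read 6.53 and 7.02 (0.49, 1.40-fold). Mrpl14, at the face that meets the small subunit, read 5.94 and 6.35 (0.42). All 3 were higher on the E4bp4-LKO array by more than the within-gene standard deviation of 0.22 between probe sets. They are named because they were the highest of the 43, so passing this mark is no support for them. Each rests on a single probe set.

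Behind them came Mrpl58, a peptidyl-tRNA hydrolase that became a ribosomal protein, with 7.63 and 7.98 (0.35). Mrpl50, a mitochondria-specific protein, read 8.33 and 8.68 (0.35), and Mrpl46, another, read 5.19 and 5.53 (0.34). Mrpl32, which the inner-membrane AAA protease trims before it joins the ribosome, read 6.68 and 6.98 (0.30). The protease genes themselves were lower on the E4bp4-LKO array, Afg3l2 by 0.26 (8.42 and 8.16) and Spg7 by 0.36 (6.29 and 5.93) on the log2 scale.

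At the other end of the large subunit were Mrpl47, Mrpl40, Mrpl49, Mrpl19, Mrpl37 and Mrpl51. Mrpl47, the counterpart of bacterial L29 near the exit of the protein tunnel, averaged 4.55 on the WT array and 4.42 on the E4bp4-LKO array (-0.13), but its 2 probe sets differed in opposite directions, as given below. Mrpl40 read 5.41 and 5.29 (-0.12), Mrpl49 7.36 and 7.25 (-0.11), Mrpl19 5.92 and 5.82 (-0.11) and Mrpl37 7.42 and 7.35 (-0.07). Mrpl51 read 6.73 and 6.70 (-0.03). None of these 6 was lower by as much as the within-gene standard deviation of 0.22 between probe sets.

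By place within the large subunit, the genes of some parts lay closer together than those of others. In the stalk that recruits translation factors, Mrpl12, the stalk protein itself, read 5.81 and 5.83 (0.02), Mrpl10, which carries it, 5.91 and 6.01 (0.10), and Mrpl11, at the base, 6.07 and 6.37 (0.30). Around the peptidyl transferase centre, where peptide bonds form, Mrpl2, Mrpl3 and Mrpl16 differed by only 0.03 to 0.07. Mrpl4, further down in the protein tunnel, differed by 0.04. Mrpl27, also at the peptidyl transferase centre, had the widest difference of all 71 genes, at 3.14 on the WT array and 4.23 on the E4bp4-LKO array (1.10). Its mean was below the floor and its WT value far below it, so the size is uncertain. At the tunnel exit, Mrpl22 (0.16), Mrpl23 (0.12), Mrpl24 (0.12) and Mrpl45 (0.10), the protein that tethers the ribosome to the inner membrane, were higher by similar amounts, with Mrpl47 opposite. The values of Mrpl10, Mrpl12 and Mrpl47 are averages of 2 probe sets of opposite sign, as given below.

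In the small subunit, 23 genes lay above the floor, 19 of them with a difference above 0, and their median difference was 0.12, the same as in the large subunit to 2 decimals. Mrps21, of bacterial descent, was highest, with 6.49 on the WT array and 6.89 on the E4bp4-LKO array (0.41, 1.32-fold). Mrps17 followed with 5.95 and 6.28 (0.33), Mrps33, a mitochondria-specific protein, with 6.89 and 7.22 (0.33), and Mrps28 with 5.79 and 6.09 (0.30). Mrps5 was lowest, at 5.36 and 5.25 (-0.11), and its 2 probe sets gave nearly the same difference. Mrps12 (-0.04), Mrps35 (-0.03) and Mrps11 (-0.02) lay just below 0.

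The proteins that line the path of the messenger RNA and the decoding centre differed in both directions. Mrps24, at the entry, read 7.24 on the E4bp4-LKO array, 0.23 above its WT value, and Mrps2 read 6.29 and 6.47 (0.18). Mrps5, also at the entry, Mrps11, on the platform, and Mrps12, the decoding protein, were at or below 0 with the values just given. The median of these 5 was -0.02, equal to that of all genes above the floor.

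The 40 members of bacterial descent had a median difference of 0.16 and the 26 mitochondria-specific ones a median of 0.09, with 34 of 40 and 21 of 26 above 0. The gap in medians was not found in the large subunit, where they were 0.12 over 27 genes and 0.13 over 16. It lay in the small subunit, with 0.18 over 13 genes and 0.07 over 10. The counts above 0 did not follow the medians. In the large subunit they were 24 of 27 for bacterial descent and 12 of 16 for mitochondria-specific genes. In the small subunit they were 10 of 13 and 9 of 10. None of these gaps has a replicate error, and none was tested. Mrps30 and Mrps18a, whose proteins sit in the large subunit despite their names, read 6.88 and 6.89 (0.01) and 6.38 and 6.55 (0.16).

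Mrps18a belongs to a family of 3 related proteins with Mrps18b and Mrps18c, each of which holds its own place in the ribosome. Mrps18b, a small subunit protein, read 7.76 and 7.83 (0.08). Mrps18c, the form closest to the bacterial protein in its place on the ribosome, read 4.05 and 4.10 (0.04), below the floor on both arrays. The 3 thus differed by 0.04 to 0.16, all less than the within-gene standard deviation of 0.22 between probe sets. Protein sequences were not used here.

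The 5 members below the floor were Mrpl27, Mrpl48, Mrps14, Mrps18c and Mrps36. Mrpl48 read 4.20 on both arrays, at the floor itself. Mrps14 read 3.48 and 3.27 (-0.21). Mrps36 read 3.71 on the E4bp4-LKO array, a difference of -0.29; its protein is now counted with the 2-oxoglutarate dehydrogenase complex of the citric acid cycle. Without a floor, 58 of the 71 genes were above 0, beside 47.6% of all genes, and Mrpl27 was the 1 member at least 1.5-fold apart, beside 2.98% of all genes.

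The 9 members with a second probe set show how far a single value can be trusted. In Mrpl47 the brighter probe set was higher on the E4bp4-LKO array (5.24 and 5.52, 0.28) and the dimmer one lower (3.85 and 3.31, -0.54), so its place as the lowest member above the floor rests on the dim one. In Mrps16 the brighter probe set differed by -0.02 and the dimmer by 0.41, and in Mrpl36 by -0.05 and 0.39. In Mrpl10 they differed by -0.0030 and 0.21, in Mrpl12 by 0.10 and -0.05, in Mrps18b by 0.19 and -0.03 and in Mrps18c by 0.20 and -0.12. Both probe sets of Mrps17 (0.21 and 0.45) were above 0 and both of Mrps5 (-0.10 and -0.13) below it. Of the 9 genes, 7 thus had probe sets of opposite sign, and the other 62 members rest on 1 probe set each.

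Probe sets that the annotation gives to a member and another gene together were outside the rule. Mrpl30, Mrpl33, Mrpl41, Mrpl43, Mrpl44, Mrpl53 and Mrps6 have only such probe sets, so these subunits are not among the 71. Shared probe sets also exist for members, namely Mrpl47 (0.15), Mrpl19 (0.16), Mrps27 (-0.22, with both values below the floor) and Mrps34 (0.28). In Mrpl47, Mrpl19 and Mrps27 the sign was opposite to that of the member value (-0.13, -0.11 and 0.16). In Mrps34 it was the same (0.07). Of these shared probe sets, the one of Mrpl53 and Ccdc142 that read 7.77 and 8.28 (0.52) had the widest difference, while that of Mrpl43 and Twnk read 7.21 and 7.19 (-0.02). Their signal cannot be assigned to either gene.

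The genes around the mitochondrial ribosome were not all higher. Of its subunits with other names, Ptcd3, a small subunit protein that receives the messenger RNA, read 6.90 and 7.23 (0.33), Dap3, the GTP-binding subunit, 5.65 and 5.71 (0.06) and Gadd45gip1 4.46 and 4.48 (0.02). Of 22 assembly factors above the floor, 10 were above 0 and 12 below, and their median was -0.02. These are near the values of all genes above the floor, of which 45.5% were above 0, with a median of -0.02. Malsu1, which guards the large subunit against early joining, was highest (0.38), then Tfb1m, the methylase of the small ribosomal RNA (0.35), and the GTPase gene Gtpbp10 (0.23). Dhx30, an RNA helicase (-0.29), the endonuclease-like gene Ybey (-0.21) and the GTPase gene Mtg1 (-0.19) were lowest.

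The 15 translation factor genes had a median of 0.14, with 10 above 0, beside 45.5% of all genes above the floor. With the brightest probe set of each gene the median of the 15 was 0.055. Mtrf1, a release factor homologue, was the 1 gene among them at least 1.5-fold higher, at 5.48 and 6.10 (0.62), beside 1.51% of all genes above the floor. The initiation factor gene Mtif2 (0.37) and Taco1, an activator of Cox1 translation (0.24), followed. The elongation factor genes Gfm1 (-0.28), Tufm (-0.13) and Tsfm (-0.13) were lowest, while their relatives Gfm2 (0.0047) and Guf1 (0.18) were not lower.

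Of 20 genes for enzymes that charge mitochondrial transfer RNAs, 8 were above 0 and 12 below, with a median of -0.06. Over all genes above the floor, 45.5% were above 0. Yars2 (0.35), Rars2 (0.30) and Nars2 (0.27) were highest, and Mars2 (-0.50, 4.52 and 4.03, the second below the floor), Iars2 (-0.24) and Sars2 (-0.23) lowest. Kars and Gars, which serve the cytosol too, were counted among them. None of the 20 was 1.5-fold apart, beside 3.57% of all genes above the floor. The 10 genes that transcribe and copy mitochondrial DNA had a median of -0.02. The elongation factor gene Tefm (0.56), the polymerase subunit gene Polg2 (0.28) and Ssbp1 (0.25) were highest in that list, and the helicase gene Twnk (-0.17), the RNA polymerase gene Polrmt (-0.16) and Polg (-0.12) lowest.

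Most factors known to drive genes of this kind differed little. Of 10 controllers above the floor, 5 were above 0 and 5 below (median -0.01), beside 45.5% of all genes above 0. Gabpb1 (0.16), Yy1 (0.08) and Gabpa (0.05) were highest. Myc (-0.39), the coactivator gene Ppargc1b (-0.37) and Nrf1 (-0.10) were lowest, with Ppargc1a at -0.10. Of 21 genes of mitochondrial import, chaperones, channels and proteases, 9 were above 0 (median -0.04), beside the same 45.5%. Clpx, the unfoldase of a matrix protease, read 8.70 and 9.32 (0.62) and was the 1 of them at least 1.5-fold higher, beside the same 1.51% of all genes, and the receptor genes Tomm20 (0.40) and Tomm22 (0.36) followed. Spg7, Lonp1 (-0.27) and Afg3l2 were lowest.

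**Figure D2:**
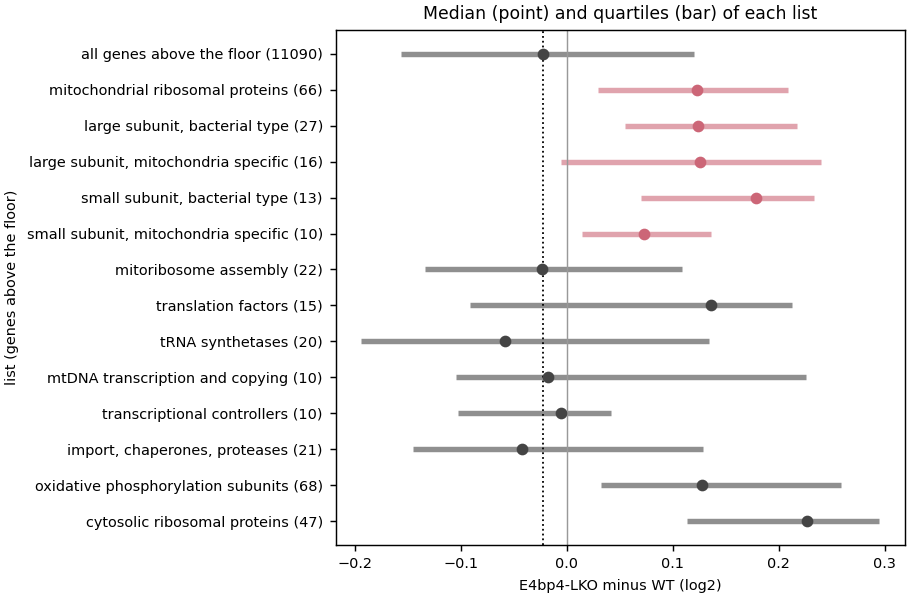
Median (point) and quartiles (bar) of the difference E4bp4-LKO minus WT, on the log2 scale, for all genes above the floor, for the mitochondrial ribosomal proteins and their classes (red), and for the lists around them (grey), with the number of genes in brackets and the median of all genes as a dotted line. The classes of the mitochondrial ribosome have medians between 0.07 and 0.18, while assembly factors, transfer RNA enzymes and import genes centre at or below the median of all genes.

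Families of comparable kind, whose products also go into ribosomes and respiratory complexes, were set beside the members. The 68 nuclear-encoded subunits of oxidative phosphorylation above the floor had a median difference of 0.13 with 55 above 0 and 1 at least 1.5-fold higher, close to the 0.12 of the mitochondrial ribosomal proteins. The 47 cytosolic ribosomal protein genes above the floor had a median of 0.23 with 43 above 0, and 5 of them were at least 1.5-fold higher, beside 1.51% of all genes above the floor. Cytosolic ribosomal protein genes have many pseudogene copies, so single values of that family are uncertain. With 1 array per genotype the families' differences from each other could not be tested.

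**Figure D3:**
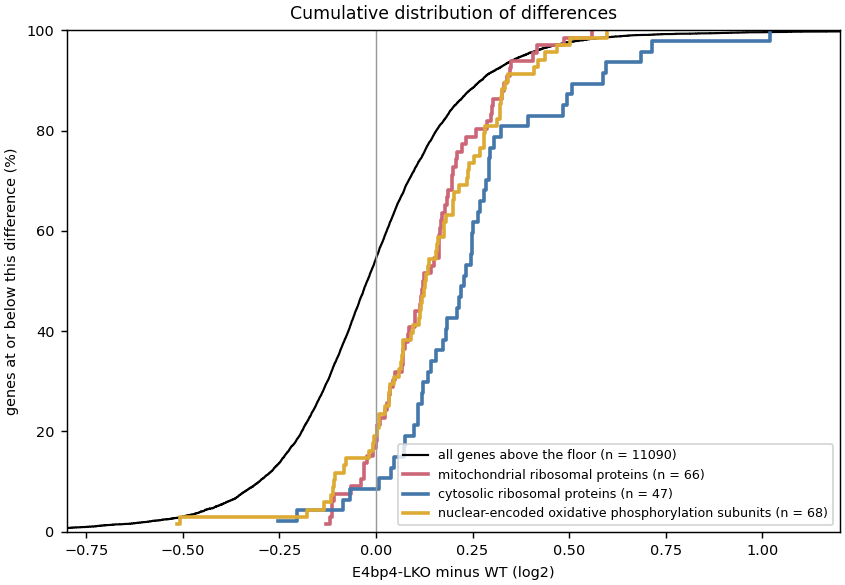
Cumulative share of genes (vertical axis, %) at or below each difference E4bp4-LKO minus WT (horizontal axis, log2), for all 11090 genes above the floor (black), 66 mitochondrial ribosomal protein genes (red), 68 oxidative phosphorylation subunits (yellow) and 47 cytosolic ribosomal protein genes (blue). The red curve lies to the right of the black one over most of its range and nearly on the yellow one, with the blue curve further right.

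Gene length moved with the difference over the whole array. The members are short genes, with a median annotated length of 7690.5 bases beside 23929 for the 10494 protein-coding genes above the floor that have a length. In the shortest of 10 length classes the median difference of all genes was 0.04, and it was -0.08 in the longest. In the 3 shortest classes (up to 12538 bases), 3100 other genes had a median of 0.01 with 52.6% above 0, while the 48 members there had a median of 0.12 with 39 above 0. The 18 longer members had a median of 0.13 with 16 above 0. With the length trend subtracted, the median of the members was 0.116 and 52 of 66 were above 0. The like comparison, with only the all-gene median subtracted, gave 0.146 and 56 of 66. Transcript length was not used here, and its part was not tested.

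**Figure D4:**
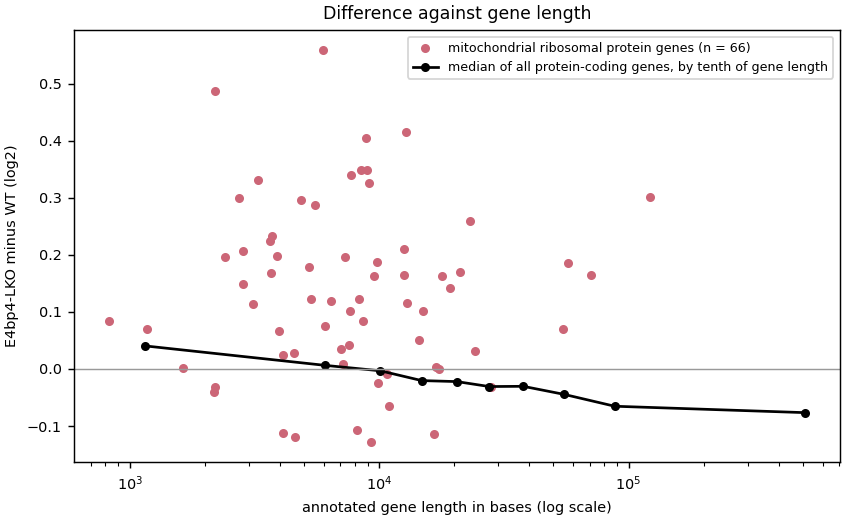
Difference E4bp4-LKO minus WT (log2, vertical axis) against annotated gene length in bases (horizontal axis, log scale) for the 66 members above the floor (red points), with the median of all protein-coding genes in 10 classes of equal size (black). The black line runs from 0.04 to -0.08, and most red points lie above it at short and long lengths.

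Many member genes start back to back with another gene. Within 500 bases upstream, 15 members above the floor had a partner above the floor that is no member and points the other way. Of these 15 pairs, 9 had the same sign on both sides, where 9 of the members and 11 of the partners were above 0. The Pearson correlation between the differences of members and partners was -0.05. The median was 0.12 for the members and 0.11 for the partners, which ranged from -0.23 to 0.40. Mrpl49 (-0.11) lay opposite Fau, which carries a cytosolic ribosomal protein (0.40), with 192 bases between the starts. Mrpl47 (-0.13, but 0.28 in its brighter probe set) lay opposite the complex I gene Ndufb5 (0.22). Mrpl14 (0.42) lay opposite Tmem63b (-0.11), Mrpl32 (0.30) opposite the proteasome gene Psma2 (0.23) and Mrps12 (-0.04) opposite Sars2 (-0.23). Mrpl46 (0.34) and Mrps11 (-0.02), with starts 42 bases apart, are both members; the bases between them are printed above.

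Markers of several cell types also differed between the arrays. In bulk tissue, fewer cells of a type and less RNA per cell cannot be told apart. Albumin (Alb), the chief protein made by hepatocytes, read 12.77 on both arrays. Of 11 hepatocyte markers, all above the floor, 8 were above 0 with a median of 0.08, and their summed linear intensity was 35473 on the WT array and 36982 on the E4bp4-LKO array. All 11 skeletal muscle markers above the floor were lower on the E4bp4-LKO array (median -0.86, summed intensity over all 13 measured 870 and 470), as were all 6 stellate cell markers (-0.63, 1874 and 1419), all 5 endothelial markers (-0.27, 1587 and 1303) and all 4 markers of dividing cells above the floor (-0.78). Of 7 macrophage markers, 4 were above 0 (median 0.07), and of 4 lymphocyte markers above the floor, 3 (0.26). The 5 markers of stratified epithelium above the floor had the widest differences of any marker list and split, with Krt4 (2.95), Krt13 (2.26) and Krtdap (1.76) higher and Sprr1a (-2.22) and Ly6d (-1.91) lower; the summed intensity of the 7 measured was 1280 and 512. Of the 2 cholangiocyte markers above the floor, 1 was above 0, and 0 of 3 adipocyte markers passed the floor. The part of these differences in that of the mitochondrial ribosomal proteins was not tested.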

How the data were processed

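Liver RNA pooled by genotype was hybridised to 1 Affymetrix array for WT and 1 for E4bp4-LKO mice. The deposited values are log2 intensities; per the submitters' processing notes they were made with RMA in R 3.4.0, and the series description records the pooling. RMA corrects background, equalises the arrays by quantiles and summarises probe sets, which compresses differences of dim genes and removes any shift common to most genes. Of 41345 probe sets, 23521 carry 1 gene symbol in the platform annotation, 1814 several and 16010 none; those with 1 symbol were averaged per gene. All 71 member symbols matched RefSeq (GRCm38.p6) through their Entrez identifiers. The array medians were 3.74 (WT) and 3.75 (E4bp4-LKO). Scanner files, detection calls and probe sequences were not used here, so cross-hybridisation with pseudogenes was not examined.

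Differences are E4bp4-LKO minus WT on the log2 scale, and a gene was called when 1.5-fold apart. There is no test, since each group has 1 array; the number of arrays limits the precision. The summary script was tested on simulated data. Named are the targeted gene, the 10 highest and 10 lowest members above the floor, those below the floor or with more than 1 probe set, role groups, and the extremes of each pathway list. Members and lists were chosen with earlier results of these data known. Promoters that fell within annotated genes were passed over for the next member. Python 3.11.15, pandas 2.3.3 and statsmodels 0.14.6 were used.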

Additional observations from a re-analysis of the deposited data

How the results depend on the processing

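The median difference of the mitochondrial ribosomal protein genes stayed between 0.12 and 0.15 under the 7 alternatives that could move it: the brightest probe set of a gene, single-probe-set genes, subtraction of the all-gene median, of a trend on level or on gene length (the last chosen after seeing the data), no floor, and a floor at the 75th percentile. Leaving out Mrps36 could not change it, since that gene lies below the floor. The count above 0 was 52 of 66 with the length trend subtracted and 56 of 66 with the level trend subtracted. The medians of both subunits and of both descent classes kept their sign in each of these they were run in. The count of members at least 1.5-fold apart was 0 except without a floor, where it was 1 (Mrpl27), and was 13 at 1.2-fold. With the brightest probe set, the median of the translation factors was 0.055 and that of the cytosolic ribosomal proteins 0.28, and among single members 4 changed sign: Mrpl47 (0.28), Mrpl36 (-0.05), Mrps16 (-0.02) and Mrpl10 (-0.0030). No paired analysis was possible because each genotype has a single array. No sample can be left out for the same reason. No detection call was used, so signal over background limits the dim members.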
